A study of Homo sapiens with 12 samples.

Results

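The abundant long noncoding RNAs described here are 8 genes of the deposited expression table, taken by name from its 37471 genes. MALAT1 and NEAT1 are nuclear transcripts, and GAS5, SNHG1, SNHG3, SNHG12, SNHG16 and ZFAS1 are snoRNA host transcripts. The cells were CAL62, a line from an anaplastic thyroid carcinoma, in 2 isogenic versions. Doxycycline switches on mature hsa-miR-139-5p in cells called here the miR-139 line, and a non-targeting control sequence in the scrambled line. Untreated cells of each line were sampled at 0 h, and the treated cells after 96 h with 1 µg/ml doxycycline. Within a line, doxycycline and the 96 h of time thus cannot be told apart, and differences called doxycycline below hold both. PolyA RNA was sequenced from 3 libraries in each of these 4 groups, 12 in all. Every group, controls included, thus comes from cells that carry an inducible construct, and no library of unmodified CAL62 cells was analysed here. The column of each library bears a tag, C, NE or TR, which occurs in every group and whose meaning the labels do not give. Nothing in the labels says which libraries came from separate cultures, so p-values measure only how these libraries vary, which can be partly technical variation.

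MALAT1 is retained in nuclear speckles, the bodies that store splicing factors. NEAT1 is made as a short polyadenylated transcript and as a much longer one that forms the scaffold of paraspeckles, nuclear bodies that hold RNA-binding proteins such as SFPQ and NONO. The snoRNA hosts carry small nucleolar RNAs, which guide the modification of ribosomal RNA, inside their introns. The spliced exons of several of them leave the nucleus, are bound by ribosomes and are degraded by nonsense-mediated decay, and several begin with the pyrimidine-rich start of transcripts of the translation machinery.

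In GENCODE 29 (GRCh38, another build than that of the expression values) the genes lie on chromosomes 1, 11, 17 and 20. NEAT1 (chr11:65422774-65445540) and MALAT1 (chr11:65497688-65506516) are neighbours on the plus strand, each with a longest transcript of 1 exon. SNHG1 lies elsewhere on the same chromosome (chr11:62851988-62855914, minus strand). GAS5 (chr1:173863900-173868882, minus), SNHG3 (chr1:28505980-28510892, plus) and SNHG12 (chr1:28578538-28583132, minus) share chromosome 1. SNHG16 (chr17:76557766-76565348) and ZFAS1 (chr20:49278178-49295738) are on the plus strand. GENCODE types SNHG12 and ZFAS1 as antisense. Libraries were made with a strand-keeping kit, but whether strand was used in counting is not given in the sources used here, so reads from ZFAS1 and from ZNFX1 on the other strand may not be told apart.

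The induced miRNA is shown first, with its seed (bases 2 to 8) in capitals. The mature sequence lies at chr11:72615102-72615124 on the minus strand (RefSeq, GRCh38.p14).
hsa-miR-139-5p: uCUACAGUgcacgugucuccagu
The seed-complementary 7-mer ACTGTAG was searched on the transcript strand of every GENCODE transcript of the 8 genes. It occurred in transcripts of NEAT1 and SNHG3, and in no annotated transcript of the other 6. That is 2 of their 117 annotated transcripts (1.71%), below the 4.67% of 28148 annotated lncRNA transcripts of any length that held it. The sites are printed because they are the places where the induced seed could pair in these RNAs, with the 7-mer in capitals.
NEAT1 bases 8684 to 8690: tgaggaaccACTGTAGtttttcata
NEAT1 bases 13988 to 13994: gcaatttttACTGTAGataaggcta
SNHG3 bases 1517 to 1523: gtttggtggACTGTAGagcttgctt
Both NEAT1 sites (chr11:65431481-65431487 and chr11:65436785-65436791) lie only in NEAT1-202, the long transcript of 22743 bases, and not in the other 7 annotated transcripts. The SNHG3 site (chr1:28510208-28510214) lies in exon 3 of 3 of the transcript with 2201 bases, and in no other of the 3 annotated transcripts. A match is a description of the letters and not evidence of pairing. The table gives 1 value per gene, so the long and the short NEAT1 transcript cannot be told apart in it. The libraries were made from polyA RNA, and how much of the long transcript they captured is not known.

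Some annotated transcripts of each host open with a run of pyrimidines, which no annotated MALAT1 or NEAT1 transcript does. The first bases of 1 annotated transcript per gene are printed, with the opening C and the C or T that follow it in capitals: the RefSeq start where that begins with C (SNHG1, SNHG12, ZFAS1; GRCh38.p14), and otherwise a GENCODE start (GRCh38), which for GAS5, SNHG3 and SNHG16 is the transcript with the longest such run.
MALAT1 (chr11:65497762-65497785, plus): gtaaaggactggggccccgcaact
NEAT1 (chr11:65422798-65422821, plus): ggagttagcgacagggagggatgc
GAS5 (chr1:173867966-173867989, minus): CTTTTCgaggtaggagtcgactcc
SNHG16 (chr17:76557769-76557792, plus): CTTTTCgaggtcggccgcgtggct
SNHG3 (chr1:28506043-28506066, plus): CCTTTTTggagacagattcgcagt
SNHG12 (chr1:28581850-28581873, minus): CCTTTCTCCCCgccgcattcccgg
ZFAS1 (chr20:49278642-49278665, plus): CTTTCgcgtctgcggtgcccggag
SNHG1 (chr11:62855862-62855885, minus): CTCatttttctactgctcgtggta
A C followed by at least 4 more C or T opened some annotated transcript of 6 of 6 hosts: 6 of 29 for GAS5, 1 of 25 for SNHG1, 1 of 3 for SNHG3, 4 of 17 for SNHG12, 2 of 8 for SNHG16 and 3 of 10 for ZFAS1. That is 17 of 92 host transcripts (18.5%), against 2.41% of all GENCODE transcripts. In RefSeq only 2 of 6 hosts, SNHG12 and ZFAS1, had such a start, against 4.07% of all RefSeq starts. None of the 17 MALAT1 and 8 NEAT1 transcripts did so. The starts printed for GAS5, SNHG3 and SNHG16 were picked for their run. Of 8237 tested genes matched by symbol, 20.7% had such a start in GENCODE or RefSeq. The start printed for SNHG1 is interrupted by an A after 3 bases.

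The libraries were taken as deposited, in FPKM (fragments divided by transcript length and by library size), a unit that allows levels of different genes to be compared but carries no read counts, so the depth is unknown. The 4 libraries tagged NE stood apart from the other 8. The 37 mitochondrially encoded genes held 6.08 to 9.18% of the summed FPKM in them, against 11.4 to 12.8% in C and 12.3 to 13.1% in TR. The cells carried PAX8, the thyroid lineage factor, at 107 ± 25.9 FPKM (SD, n = 12), vimentin at 1711 ± 206 and keratin 8 at 618 ± 111, while TSHR and SLC5A5 averaged at most 0.00181 FPKM and NKX2-1, PTPRC and CD3E were listed at 0 in all 12 libraries. CD68, a macrophage marker, averaged 8.68 FPKM (5.32 to 12.6). Of the fibroblast markers, COL1A1 averaged 62.0 FPKM (33.2 to 100.4) and DCN 0.0096 (0 to 0.115). The part of such genes in the results was not tested. In the miR-139 line with a replicate block for the tag, HNRNPF, the target named in the series' title, and EIF4G2 passed the test after doxycycline.

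All 8 noncoding RNAs were detected in every library. GAS5 had the highest mean, 339 ± 75.3 FPKM (SD, n = 12), and ranked 214th among all genes analysed. ZFAS1 followed at 265 ± 36.2, then MALAT1 at 219 ± 95.0, NEAT1 at 218 ± 115 and SNHG1 at 180.2 ± 24.1. SNHG16 averaged 63.0 ± 10.98, SNHG3 53.4 ± 4.59 and SNHG12 23.7 ± 2.38 FPKM. GAS5 thus lay above 97.8% of the 9778 genes tested (mean of at least 1 FPKM) and SNHG12 above 63.2% of them. Together the 8 took 0.242 to 0.294% of the summed FPKM in the C libraries, 0.248 to 0.265% in TR and 0.166 to 0.198% in NE.

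The order of the levels was firm at its ends and loose in the middle. GAS5 exceeded ZFAS1 in 12 of 12 libraries, SNHG1 exceeded SNHG16 in 12 of 12, SNHG16 exceeded SNHG3 in 11 of 12 and SNHG3 exceeded SNHG12 in 12 of 12. ZFAS1 exceeded MALAT1 in 9 of 12, MALAT1 exceeded NEAT1 in 7 of 12 and NEAT1 exceeded SNHG1 in 8 of 12. The order of these neighbours changed partly with the column tag. NEAT1 lay above SNHG1 in every C and TR library and below it in every NE library. In NE it had 56.3 to 109 FPKM, against 168 to 219 for SNHG1. The libraries in which MALAT1 exceeded ZFAS1 were all tagged TR. SNHG3, host of the snoRNAs of the SNORA73 family, was among the steadiest genes: its coefficient of variation was 8.60%, and only 6.76% of tested genes varied less. NEAT1 and MALAT1 were at the other extreme, with coefficients of 52.8 and 43.3%, above those of 98.2 and 96.2% of tested genes (median 17.96%). The highest library exceeded the lowest 7.17-fold for NEAT1 and 4.39-fold for MALAT1, but only 1.37-fold for SNHG3 and SNHG12.

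**Figure D1:**
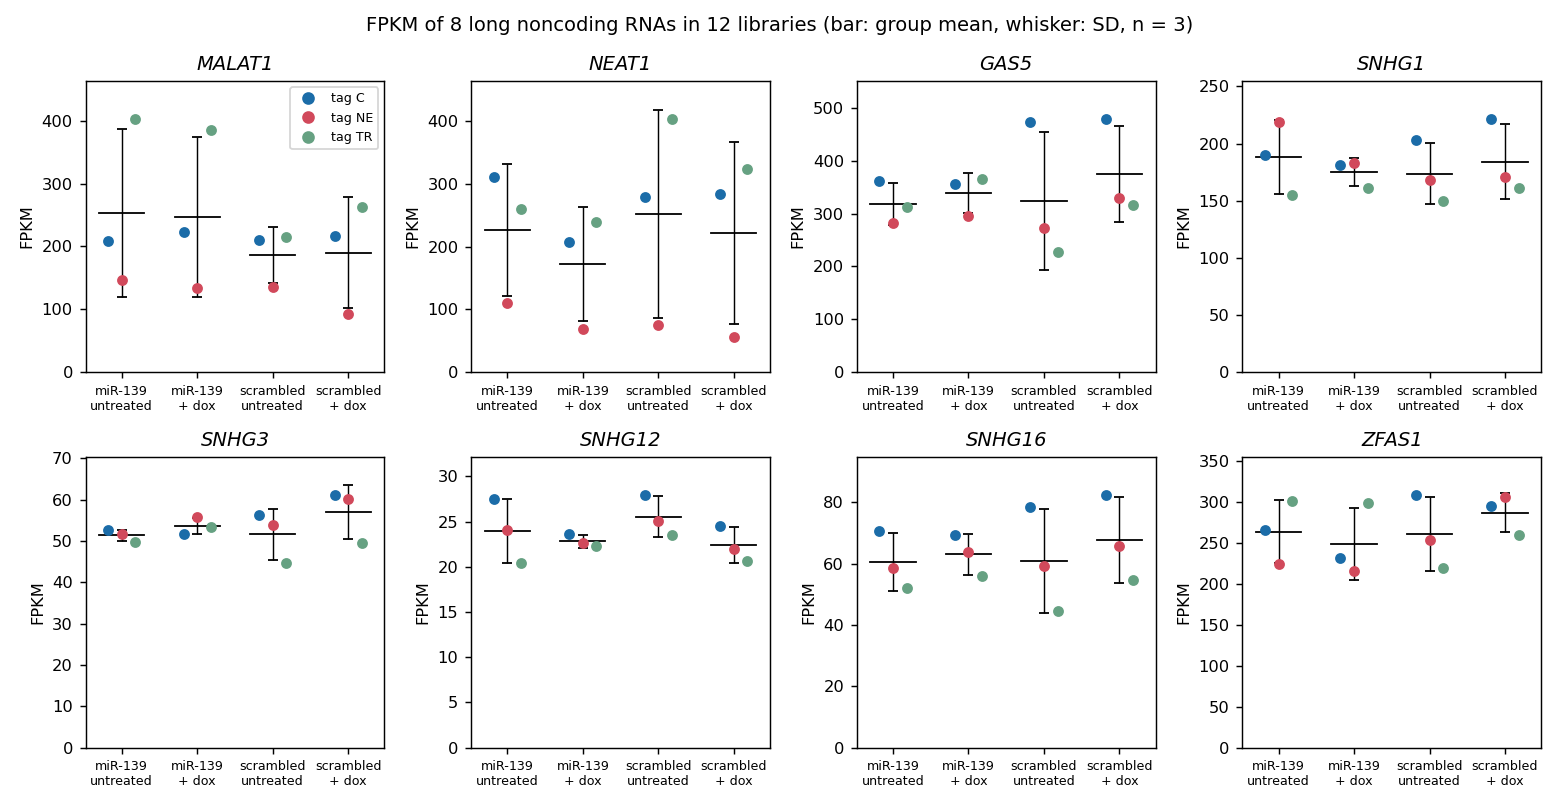
FPKM of each of the 8 long noncoding RNAs (y axis, from 0) in 12 libraries by group (x axis), with points coloured by column tag, bars for group means and whiskers for SD (n = 3). NEAT1 and MALAT1 are lowest in the NE library of all 4 groups, while the group means of each gene lie within the spread of the libraries.

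The first question was whether inducing miR-139-5p changed these RNAs. Values of each gene are given below in the order C, NE and TR. NEAT1 had 312, 109 and 259 FPKM in untreated and 208, 68.4 and 239.7 FPKM in treated cells of the miR-139 line. The treated library was the lower of its pair in 3 of 3 tags, but the groups overlapped. The log2 difference was −0.45 on the log2(FPKM + 1) scale (SE 0.75; limma, adjusted p = 1). Blocking on the tag left the difference as it was, with SE 0.19 and unadjusted p = 0.028, and an adjusted p of 1.00 in limma. In the scrambled line, NEAT1 had 279, 74.5 and 404 FPKM untreated and 285, 56.3 and 324 treated, lower in 2 of 3 tags (log2 −0.23, SE 0.19 with the block). The difference between these changes was −0.23 (SE 0.26 with the block; limma, adjusted p = 1.00), so a response of NEAT1 to the miRNA beyond that of the control line was not detectable.

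MALAT1, which holds no seed match, had 209, 147 and 403 FPKM in untreated and 223, 133 and 385 in treated cells of the miR-139 line. Its log2 difference of −0.04 (SE 0.17 with the block) had no common direction over tags. Scrambled cells had 211, 135 and 214 FPKM untreated and 216, 91.9 and 263 treated (log2 −0.07). SNHG3, the host with a seed match in 1 transcript, had 52.6, 51.6 and 49.9 FPKM untreated and 51.7, 55.7 and 53.4 treated in the miR-139 line (log2 0.06, SE 0.09 with the block). Scrambled cells had 56.3, 53.9 and 44.7 untreated and 61.2, 60.3 and 49.5 treated (log2 0.14). SNHG3 was therefore not lower with the miRNA in either the mean or most tags.

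No long noncoding RNA of the 8 passed the adjusted threshold of 0.05 after doxycycline, with or without the block. In the miR-139 line limma called 0% of tested genes without the block (72 genes at an unadjusted p under 0.05, none of the 8) and 0.0205% with it (438 at an unadjusted p under 0.05, NEAT1 among them). In the scrambled line it called 0% either way (47 and 391 genes at an unadjusted p under 0.05, none of the 8). The interaction of line and doxycycline was called for 0% of genes without the block and 0.0102% with it, which is HNRNPF alone (41 and 336 genes at an unadjusted p under 0.05). The treated and untreated libraries of a line did not overlap for 4.39% of tested genes with the miRNA construct and 2.69% with the control construct, and for none of the 8 in either.

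No host passed the test after doxycycline in either line. GAS5, a growth-arrest transcript, had 361, 282 and 312 FPKM in untreated and 356, 296 and 365 in treated cells of the miR-139 line (log2 0.09, SE 0.15 with the block), and 473, 273 and 227 against 479, 329 and 317 in the scrambled line (log2 0.26, SE 0.15). SNHG12 had 28.0, 25.1 and 23.5 FPKM in untreated and 24.5, 22.0 and 20.6 in treated scrambled cells, and its within-tag difference was −0.18 in each of the 3 tags (SE 0.09 with the block; limma, adjusted p = 1.00). In the miR-139 line SNHG12 had 27.5, 24.02 and 20.4 untreated and 23.6, 22.6 and 22.3 treated, lower in C and NE and higher in TR (log2 −0.06).

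ZFAS1 was the other RNA that was lower in 3 of 3 tags of the miR-139 line, with 265, 224 and 301 FPKM untreated and 232, 215 and 298 treated (log2 −0.09, SE 0.15 with the block). Scrambled cells had 309, 253 and 219 FPKM untreated and 295, 306 and 259.7 treated (log2 0.15). SNHG1 had 189.8, 219 and 155 against 181, 183 and 161 in the miR-139 line (log2 −0.09, SE 0.11) and 203, 168 and 149.9 against 221, 171 and 161 in the scrambled line (log2 0.08). SNHG16 had 70.8, 58.6 and 52.2 against 69.3, 63.8 and 56.0 in the miR-139 line (log2 0.06, SE 0.09) and 78.3, 59.3 and 44.6 against 82.4, 65.7 and 54.7 in the scrambled line (log2 0.17). None of these groups separated.

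Read over tags, 2 of the 8 RNAs (NEAT1 and ZFAS1, both lower) had the same direction in all 3 tags of the miR-139 line, near the 30.9% of tested genes that did. In the scrambled line 5 of 8 did, GAS5, SNHG1, SNHG3 and SNHG16 higher and SNHG12 lower, against 32.8% of tested genes. The median change of the 8 was −0.05 with the miRNA construct (all tested genes 0.003) and 0.11 with the control construct (all tested genes 0.02).

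**Figure D2:**
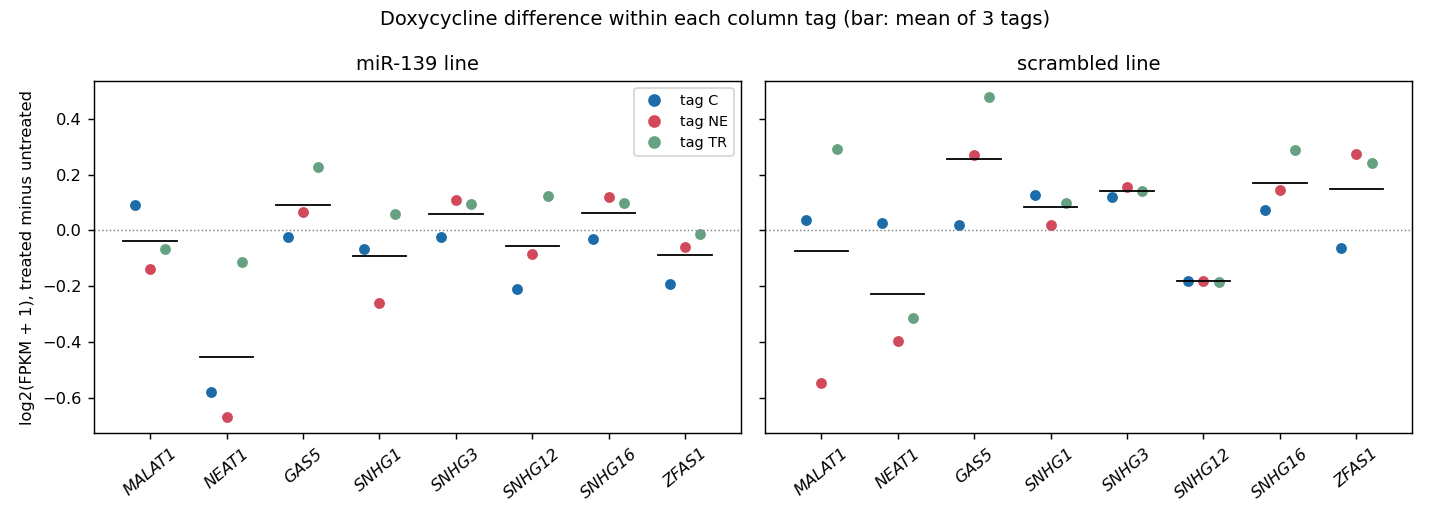
Difference in log2(FPKM + 1) between treated and untreated cells within each column tag (points) and its mean over 3 tags (bars), for the miR-139 line and the scrambled line. NEAT1 lies below 0 in 3 of 3 tags of the miR-139 line at −0.58, −0.67 and −0.11, and SNHG12 lies at −0.18 in each tag of the scrambled line.

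Comparing the lines directly asked whether their levels differed before and after induction. MALAT1 was the RNA with the largest differences among the 8: it was higher in the miR-139 line by log2 0.34 in untreated cells (SE 0.17 with the block, unadjusted p = 0.061) and by 0.37 in treated cells (SE 0.17, unadjusted p = 0.041; limma, adjusted p = 0.66). Untreated first, MALAT1 had 403 and 385 FPKM in the TR libraries of the miR-139 line against 214 and 263 in those of the scrambled line, and 147 and 133 against 135 and 91.9 in the NE libraries. The C libraries, at 209 and 223 against 211 and 216, hardly differed. The other 7 differed by −0.22 (ZFAS1) to 0.03 (SNHG12) after doxycycline and by −0.09 (SNHG12) to 0.11 (SNHG1) before it. Limma called 0% of genes between treated lines without the block and 0.112% with it, and 0% between untreated lines with or without it, none of the 8 among them. At an unadjusted p under 0.05 there were 105 genes without and 702 with the block between treated lines, MALAT1 among the 702, and 58 and 435 between untreated lines, none of the 8. Libraries of the lines did not overlap for 4.19% of tested genes after doxycycline and 2.91% before it, and for none of the 8.

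For 6 of the 8 RNAs most of the spread between libraries lay with the column tag, and 4 of the 8 had a larger tag share than the median tested gene. Of the sum of squares of NEAT1, 90.6% lay with the tag, as did 82.0% for SNHG16 and 79.8% for MALAT1, against a median of 58.3% over tested genes. The group held 3.83% for NEAT1 and 9.36% for MALAT1, and its largest share was 28.0%, for SNHG12. For GAS5, SNHG1, SNHG3 and SNHG12 the tag share was 56.5, 61.8, 43.8 and 58.1%. ZFAS1 had the smallest, 10.8%, and the combination of line and tag 62.2%, against a median of 12.3% over tested genes. GAS5 (25.9%), SNHG1 (24.4%) and SNHG3 (28.7%) also had more in that combination than the median gene.

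**Figure D3:**
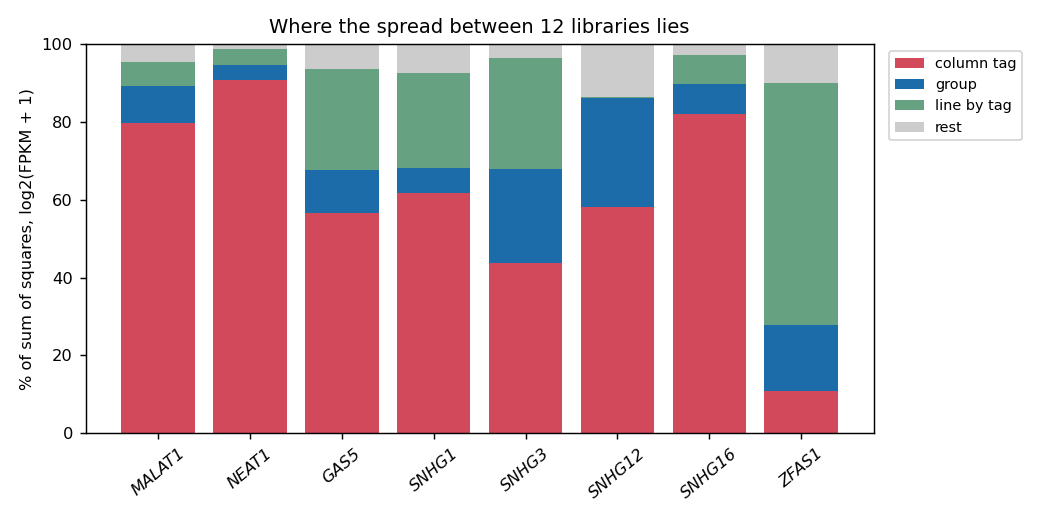
Share of the sum of squares of log2(FPKM + 1) over 12 libraries (y axis, percent) that lies with the column tag, the group, the combination of line and tag, and the rest, for each RNA. The tag takes most for NEAT1 (90.6%), and the combination of line and tag takes most for ZFAS1 (62.2%).

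NEAT1 and MALAT1 were both lower in the libraries tagged NE. NEAT1 averaged 77.2 ± 22.8 FPKM in NE against 271 ± 44.2 in C and 307 ± 74.0 in TR (SD, n = 4 each), and MALAT1 averaged 127 ± 24.1 against 215 ± 6.12 and 316 ± 92.1. Every NE library, from 56.3 to 109 FPKM for NEAT1 and from 91.9 to 147 for MALAT1, lay below every C and TR library. With the group as a term, NE differed from the mean of C and TR by log2 −1.91 for NEAT1 (SE 0.14; limma, adjusted p = 8.71e-07) and by −1.03 for MALAT1 (SE 0.12; limma, adjusted p = 2.64e-05). These correspond to 0.266 and 0.489 of the level in C and TR.

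Being lower in NE was common: limma called 24% of tested genes lower there, and 24% had NE libraries that did not overlap the others, so the count of 2 of 8 RNAs is at the background for both. Limma called 28% of tested genes higher in NE, and none of the 8. The size was not common for NEAT1. Only 0.0409% of tested genes had a lower difference than NEAT1, and 0.634% a lower one than MALAT1. The mitochondrial share of summed FPKM was also lower in NE, as given above. Its part in the difference was not tested. Rescaling FPKM to the sum without mitochondrially encoded genes multiplies each library by 1 factor and so lowers every gene in NE relative to C and TR, and it gave −2.08 for NEAT1 and −1.20 for MALAT1. In bulk RNA, fewer cells that express a gene and less of its RNA per cell cannot be told apart.

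With the group as a term, none of the 6 snoRNA hosts was called lower or higher in NE. In the fit within each line some were, as given below. GAS5 averaged 295 ± 24.6 FPKM in NE, 417 ± 67.9 in C and 305 ± 57.5 in TR (log2 −0.26, SE 0.11; limma, adjusted p = 0.069). ZFAS1 differed by −0.13, SNHG12 by −0.02, SNHG16 by −0.01, SNHG1 by 0.06 and SNHG3 by 0.08, each with an adjusted p of 0.33 or more in limma. The signs of SNHG1 and SNHG3 depended on the scaling, and both were negative under all 3 other scalings. The other hosts stayed negative under each scaling. The mitochondria-free scaling moved the median of all tested genes from 0.02 to −0.13, and with it limma called GAS5, SNHG16 and ZFAS1 lower in NE too. GAS5 was called lower in 6 of 21 alternatives. Leaving out the C libraries turned SNHG16 to 0.25.

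NEAT1 relative to MALAT1 also followed the tag in part. The ratio of their FPKM was 0.512 to 0.744 in the 4 NE libraries and 0.935 to 1.49 in the 4 C libraries. In TR it was 0.644 and 0.623 for miR-139 cells but 1.88 and 1.23 for scrambled cells. The 2 RNAs, though neighbours in the genome, did not keep a common ratio.

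Between C and TR, 4 of the 6 hosts were called. SNHG16 averaged 75.2 ± 6.23 FPKM in C and 51.9 ± 5.08 in TR (SD, n = 4 each), with every C library (69.3 to 82.4) above every TR library (44.6 to 56.0). Its log2 difference was 0.53 (SE 0.08; limma, adjusted p = 8.34e-04). SNHG1 averaged 199 ± 17.6 against 157 ± 5.41 (log2 0.34, SE 0.09; limma, adjusted p = 0.026) and SNHG12 25.9 ± 2.14 against 21.7 ± 1.49 (log2 0.24, SE 0.08; limma, adjusted p = 0.042), again without overlap. GAS5 averaged 417 ± 67.9 against 305 ± 57.5 (log2 0.46, SE 0.13; limma, adjusted p = 0.030), with overlap.

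SNHG3 at 55.4 ± 4.31 against 49.3 ± 3.55 FPKM (log2 0.16, adjusted p = 0.16 in limma) and ZFAS1 at 275 ± 34.1 against 269.5 ± 38.4 (log2 0.03) did not pass. MALAT1 went the other way, 215 ± 6.12 in C against 316 ± 92.1 in TR (log2 −0.51, SE 0.14; limma, adjusted p = 0.028), and NEAT1 differed by −0.16. Thus 4 of 8 RNAs, all hosts, were called higher in C, where limma called 8.16% of tested genes, and 1 of 8 was called lower, where it called 8.49%. Libraries of C and TR did not overlap for 3 of the 8 RNAs and for 27.9% of tested genes. The hosts' median difference was 0.29, that of all tested genes 0.01.

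SNHG16 passed under every alternative run. The other 4 calls were lost under several: without the low-expression filter limma called only SNHG12 and SNHG16 of the 8, and without any 1 of the 8 C or TR libraries it called between 1 and 3 of them. MALAT1 lost its call without any 1 of the miR-139 C and TR libraries, without the untreated scrambled C library and without the treated scrambled TR library, with values between −0.57 and −0.39. GAS5 lost it without any 1 of the scrambled C and TR libraries (0.31 to 0.42) and without the NE libraries. SNHG1 lost it without the untreated miR-139 TR, the untreated or treated scrambled C or the treated scrambled TR library (0.27 to 0.34). SNHG12 lost it without any 1 of the C and TR libraries, without the treated miR-139 or the untreated scrambled NE library, without the variance trend, with upper quartile scaling (adjusted p = 0.052 in limma) and with the scaling without mitochondrial genes (adjusted p = 0.069 in limma).

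The tag differences were then fitted within each line, a fit added after the data had been seen. For NE, limma called 3520 of 9778 tested genes in either direction with the miRNA construct, and 5736 with the control construct. The calls of single RNAs below are to be read against these counts. In NE, NEAT1 was lower in both lines, by log2 −1.53 with the miRNA construct and −2.29 with the control construct (SE 0.11 each). In FPKM its NE libraries had 109 and 68.4 in miR-139 cells and 74.5 and 56.3 in scrambled cells, untreated first. The difference between lines was 0.75 (SE 0.16; limma, adjusted p = 0.019). MALAT1 differed by −1.05 and −1.01 in the 2 lines, and that difference of −0.04 (SE 0.18) was not called. GAS5 was called lower in NE in both lines. It differed by −0.27 in the miR-139 line (SE 0.09; limma, adjusted p = 0.033) and by −0.25 in the scrambled line (SE 0.09; limma, adjusted p = 0.026). Each of these GAS5 calls was kept in 14 of 21 alternatives, and the scrambled value turned to 0.16 without the C libraries.

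ZFAS1 was lower in NE in the miR-139 line (log2 −0.31, SE 0.08; limma, adjusted p = 0.0088; called in 17 of 21 alternatives, and −0.18 without the TR libraries) and differed by 0.05 in the scrambled line. The difference between lines was −0.36 (SE 0.11; limma, adjusted p = 0.044). SNHG1 was higher in NE in the miR-139 line (log2 0.22, SE 0.07; limma, adjusted p = 0.027) and differed by −0.10 in the scrambled line, a difference of 0.32 (SE 0.10; limma, adjusted p = 0.047). For the difference between lines, the 3 of 8 RNAs called (NEAT1, SNHG1 and ZFAS1) compare with 16.5% of tested genes. ZFAS1 lost its call under all 3 other scalings, at −0.26 with upper quartile scaling, −0.08 with quantile normalization and −0.15 without mitochondrial genes, and was called in 4 of 21 alternatives. NEAT1 was called in 15 of 21 and SNHG1 in 8 of 21. Within the miR-139 line, SNHG1 was called in 11 of 21 alternatives and in none of the 3 other scalings (0.13 to 0.17), and without the untreated miR-139 NE library it was 0.10. In the scrambled line, SNHG1 was called lower in NE under all 3 other scalings. It was −0.25 with upper quartile scaling, −0.38 with quantile normalization and −0.38 without mitochondrial genes (limma, adjusted p = 0.011, 0.0015 and 0.0010). Which line held the SNHG1 call thus depended on the scaling. The calls between lines were fragile: without the low-expression filter, without the variance trend, without the TR libraries, and without the untreated miR-139 NE, the untreated miR-139 TR or the treated scrambled NE library, none of the 8 was called.

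Between C and TR, the same fit called 2024 of 9778 tested genes with the miRNA construct, and 1455 with the control construct. GAS5, SNHG16, SNHG1 and SNHG3 had larger values in the scrambled line. GAS5 differed by 0.83 there (SE 0.10; limma, adjusted p = 5.68e-04) and by 0.09 in the miR-139 line. Its FPKM was 473 and 479 in C against 227 and 317 in TR of the scrambled line, and 361 and 356 against 312 and 365 in the miR-139 line. SNHG16 was higher in C in both, by 0.69 and 0.37. SNHG1 differed by 0.45 and 0.23 and SNHG3 by 0.31 and 0.02, scrambled line first, while SNHG12 differed by 0.24 and 0.25. ZFAS1 was higher in C by 0.34 in the scrambled line (limma, adjusted p = 0.026; called in 15 of 20 alternatives, and 0.18 without the untreated scrambled C library) and differed by −0.27 in the miR-139 line (limma, adjusted p = 0.051). MALAT1 was lower in C by 0.87 in the miR-139 line (log2 −0.87, SE 0.15; limma, adjusted p = 0.0029) and differed by −0.15 in the scrambled line. Limma called no difference between lines for any gene (0% of tested genes; 1472 at an unadjusted p under 0.05, with GAS5, MALAT1, SNHG3, SNHG16 and ZFAS1 among them). For GAS5 it was −0.74 (SE 0.14, unadjusted p = 2.55e-04; limma, adjusted p = 0.13), for ZFAS1 −0.61 (SE 0.13; limma, adjusted p = 0.13) and for MALAT1 −0.71 (SE 0.21; limma, adjusted p = 0.17). Without the treated scrambled C library GAS5 and ZFAS1 passed, at −0.92 and −0.77.

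**Figure D4:**
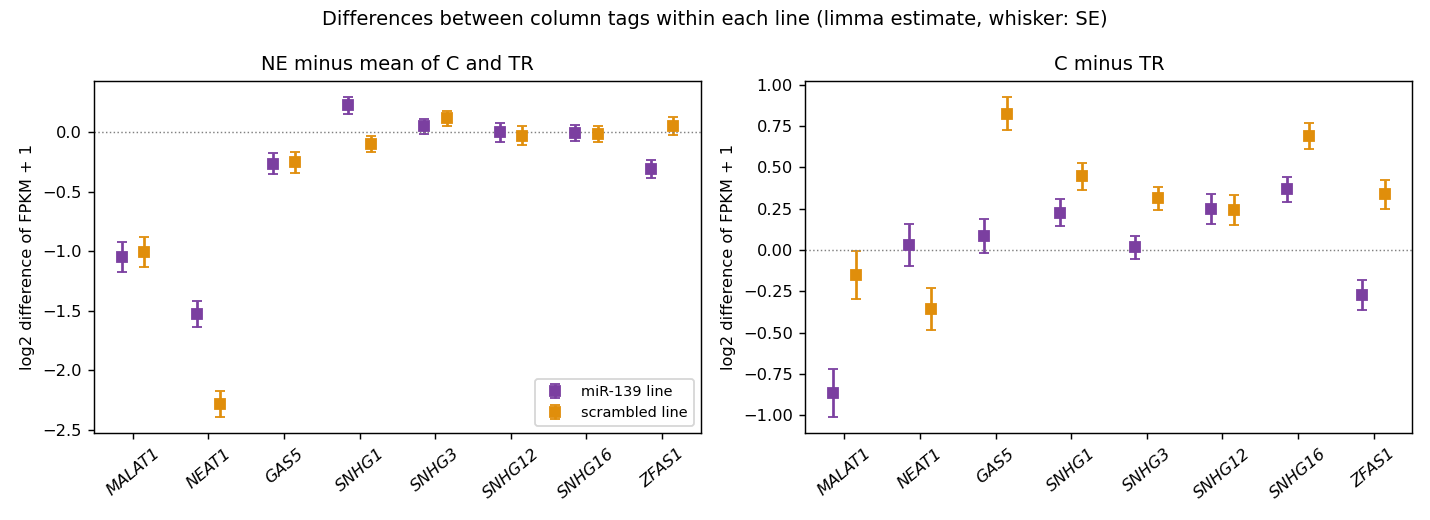
Differences in log2(FPKM + 1) between column tags, fitted within each line (points, whiskers SE): NE minus the mean of C and TR, and C minus TR. NEAT1 lies at −1.53 (miR-139) and −2.29 (scrambled) in the first panel, and GAS5 at 0.09 and 0.83 in the second.

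Other genes of the same biology, from lists chosen with earlier results of these data known, place these values. Their counts in NE are to be read against the 24% of all tested genes called lower and the 28% called higher there, and the genes called higher fall from 2739 to 1460 with the scaling without mitochondrial genes. None of the listed genes passed in any doxycycline or line comparison, with or without the block. Among 18 other tested lncRNAs, 7 were called lower and 2 higher in NE, with a median of −0.26 (all tested genes 0.02). MIR22HG, the host of miR-22, averaged 20.4, 9.17 and 20.6 FPKM in C, NE and TR (log2 −1.08), TUG1 80.3, 47.0 and 74.6 (log2 −0.74) and LINC00657, also called NORAD, 193, 140.1 and 219 (log2 −0.56). Over all 243 other tested genes of lncRNA type, 23.5% were called lower and 13.2% higher in NE, against 24.4 and 30.8% of 7637 protein-coding genes. In C against TR, 2 of the 18 were called, MIR210HG and RPPH1, both lower in C.

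Nuclear speckle proteins, which share MALAT1's compartment, were called in both directions in NE, 9 of 18 lower and 5 higher (median −0.15), the latter at the background share. Lower were LUC7L3 (log2 −0.86), the kinase CLK1 (−0.85), PNN (−0.83) and the splicing factor SRSF5, which averaged 342, 199.5 and 346 FPKM in C, NE and TR (−0.79). Higher was U2AF2 (0.54), which recognises the pyrimidine tract at the end of introns. Paraspeckle proteins, partners of NEAT1, split 5 lower and 5 higher of 17 in NE (median −0.05), near the background in each direction. SFPQ differed by −0.38 and RBM14 by 0.59, while NONO, at 432, 452 and 435 FPKM, differed by 0.06 and was not called.

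Nonsense-mediated decay and exon junction factors, which act on spliced host transcripts, were 6 lower and 4 higher of 17 in NE, with UPF2 at −0.58 and EIF4A3 at 0.43, against those shares of 24% and 28%. Only UPF3A was called between C and TR (−0.27). Of 8 snoRNP proteins, the partners of the excised snoRNAs, 5 were higher and 1 lower in NE (median 0.43; background 28% and 24%), with FBL at 0.62 and NOP58 at −0.42. In C against TR, 3 of these 8 were higher, NOLC1 (0.51), DKC1 (0.37) and RUVBL2 (0.28).

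Of 6 other tested lncRNA hosts, 2 were higher (SNHG9 and SNHG10) and 2 lower (SNHG11 and SNHG14) in NE, and none was called between C and TR. The most abundant, C17orf76-AS1, averaged 685 FPKM. Among 18 protein-coding hosts, 7 were higher and 2 lower in NE (median 0.24; background 28% and 24%). The largest difference was that of HSPA8, a chaperone with snoRNAs in its introns, at 603, 1318 and 697 FPKM in C, NE and TR (log2 1.02). In C against TR 2 of the 18 were higher, DKC1 and EEF2. The lists overlap: NOP56, NOP58 and DKC1 are also among the snoRNP proteins, and RCC1 among the neighbours. Their counts are therefore not separate. Of the snoRNAs in introns of the 6 hosts, 18 were in the table and 17 were listed at 0 in all 12 libraries, so hosts could not be compared with the RNAs they carry. SNORA73B averaged 1.14 FPKM.

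Of the neighbours, LTBP3, a latent TGF-beta binding protein beside MALAT1, had MALAT1's order over tags, at 188, 112 and 306 FPKM in C, NE and TR (log2 −1.10 for NE and −0.71 for C against TR). RCC1, next to SNHG3, was higher in NE, at 47.3, 72.2 and 41.1 FPKM (log2 0.69), unlike SNHG3. ZNFX1, on the strand opposite to ZFAS1, was lower in NE (log2 −0.38) and in C against TR (−0.31). GAS5-AS1 averaged 0.689 FPKM and was not tested.

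The genes with the closest pattern were found by the root mean square difference of mean-centred log2(FPKM + 1) over 12 libraries. For NEAT1 they were IFI44 (0.22), OASL (0.34) and IFIT3 (0.36), against 0.97 for the median gene. That median is close to NEAT1's own spread of 0.95, the value that a gene without any variation would have. IFI44 averaged 7.88, 1.59 and 8.51 FPKM in C, NE and TR. For MALAT1 they were GBP2 (0.19), RP11-260M2.1 (0.21) and FAM3C2 (0.21), with FAM3C2 at 127, 72.0 and 199.7 FPKM. Some of these genes averaged less in NE than the 1 FPKM added before the log. These were OASL (0.43), IFIT3 (0.96), GBP2 (0.40) and RP11-260M2.1 (0.94). RSL1D1 (0.066) was closest to SNHG1, PYGL (0.061) to SNHG16, PABPC3 (0.061) to SNHG3, SKAP1 (0.11) to GAS5, ACVR1B (0.075) to SNHG12 and MT1E (0.084) to ZFAS1. The 12 libraries share cells, tags and scaling, so these likenesses are descriptions.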

How the data were processed

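The authors deposited FPKM values, and per the submitters' processing notes the tools were STAR 2.5, TopHat2 2.0.10, TopHat, Cufflinks, HTSeq, Bowtie 1.0.0, FastQC 0.11.0 and SAMtools (1.3.1 and 0.1.19), with hg19 (GRCh37). Which tool made the values, and with which annotation and strand setting, is not given in the sources used here. Because each library's FPKM share 1 total, a larger share of some genes lowers all others. Chromosomes 3 to 9 were not analysed here. PolyA selection leaves out RNA without a polyA tail.

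Tests used limma 3.58.1 (R 4.3.3) on log2(FPKM + 1) for 9778 genes with a mean FPKM of at least 1, with a variance trend, two-sided, Benjamini-Hochberg adjusted over all of them, at a threshold of 0.05. Log2 differences understate changes of low genes. The procedure was tested on simulated data. Group comparisons used 4 group means, and tag comparisons added the tag (NE against the mean of C and TR, and C against TR). The tags pair the libraries: deviations from group means correlated at 0.33 to 0.86 in 18 same-tag pairs and −0.66 to 0.14 in 36 others. A second fit used the tag as a replicate block. The fit of tags within lines was added after seeing the data. Column names give group and tag, not the sample titles' letters.

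The 8 genes and all lists were chosen with earlier results of these data known. Named genes are the 8, their neighbours, the 3 genes closest in pattern and list genes that passed; since the tag comparisons call very many genes, only the more abundant or more different of those are named, a choice made after their values were seen. Sequences came from GENCODE 29 and RefSeq; 7 of the 8 genes matched a RefSeq promoter, and NEAT1 did not. Alternatives were another pseudocount, filter and scaling, no variance trend, and leaving out each tag or library.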

Additional observations from a re-analysis of the deposited data

Results flagged for a closer look

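The difference of NE from C and TR differed between the 2 lines for 3 of the 8 RNAs, by the test of that difference in limma. For NEAT1 the miR-139 line was higher by log2 0.75 (SE 0.16, adjusted p = 0.019 in limma), since NE was less far below C and TR there. For SNHG1 the value was 0.32 (SE 0.10, adjusted p = 0.047 in limma). For ZFAS1 it was −0.36 (SE 0.11, adjusted p = 0.044 in limma). The ZFAS1 call was lost under all 3 other scalings (−0.26, −0.08 and −0.15), and its value was −0.06 without the TR libraries. NEAT1 was called in 15 of 21 alternatives and SNHG1 in 8 of 21. Without the low-expression filter, or without the variance trend, limma called 0 genes. Each line and tag had 2 libraries, untreated and treated cells, and limma called 16.5% of tested genes. The fit was added after the data had been seen.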

How the results depend on the processing

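In the 5 doxycycline and line comparisons none of the 8 RNAs was called under any of 45 alternatives, so there was no called direction to change. Uncalled directions did change: the sign was kept in 30 (SNHG3, untreated lines) to 45 of the 45 alternatives. The genes called moved from 0. With the replicate block, alone or with another alternative, they numbered 1 to 2 for doxycycline in the miR-139 line, 0 to 6 in the scrambled line, 1 for the interaction and 5, 8, 9, 10 or 11 for the treated lines. Without the block, no filter gave 6 in the scrambled line, 1 for the interaction, 5 for the treated and 2 for the untreated lines, and quantile normalization and the scaling without mitochondrial genes gave 1 for the miR-139 line and 1 for the treated lines. Without single tags or libraries, with the block, the counts were 1 to 2, 1 to 2, 1 and 1 to 11 where they moved.

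For NE against C and TR, NEAT1 and MALAT1 were called under all 21 alternatives, at −2.10 to −1.74 and −1.29 to −0.78. The number of the 8 called was 2, and 3 with GAS5 added under upper quartile scaling, without the treated miR-139 C library and without the untreated scrambled TR library, or with SNHG16 added without the C libraries. It was 4 with quantile normalization (GAS5 and ZFAS1 added), 5 without mitochondrial genes (SNHG16 added) and 4 without the TR libraries. Of the called genes, 53.9% were higher in NE as deposited, 39.6% with upper quartile scaling and 29.9% without mitochondrial genes. SNHG16 was −0.28 without the TR and turned to 0.25 without the C libraries. In the scrambled line, GAS5 was −0.67 without the TR and turned to 0.16 without the C libraries, and SNHG16 was −0.36 and 0.33. ZFAS1 turned to −0.32 with quantile normalization and to −0.23 without mitochondrial genes, where SNHG3 turned to −0.16. The cause was not tested.

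For C against TR, 5 of the 8 were called, 2 without filter or variance trend, and 1 to 5 without a tag or library. The genes called were 1628, with 996 without filter and 875 to 2288 without a tag or library. For the NE difference between lines, 3 of the 8 and 1613 genes were called, against 0 and 0 without filter or variance trend, 925 genes with quantile normalization, and 0 to 3 RNAs and 0 to 2014 genes without a tag or library. The C against TR difference between lines was called for 6 genes without mitochondrial genes and for 0 to 20 genes and 0 to 2 RNAs without a tag or library. Depth is unknown, so no detection limit is given.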
